A study of Mus musculus with 9 samples.

Results

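Of the 9 RNA sequencing libraries of blood monocytes in the series, 2 are labelled CD19Cre with floxed Fcgr2, and they were set against 5 libraries labelled null or CEBPaCre. The 2 were chosen by their labels alone: 1 library came from Gr-1+CD11b+ and 1 from Gr-1-CD11b+ cells. The reference held 3 Gr-1+ libraries (null replicates 1 and 2, and CEBPaCre) and 2 Gr-1- libraries (null and CEBPaCre). Of 23234 gene symbols, 10442 had a mean of at least 1 FPKM over these 7 libraries, and 10358 that were also above 0 in at least 2 of them were tested. FPKM, the unit of all levels here, scales fragments by transcript length and by all mapped fragments of the library.

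All mice were C57BL/6, 8 months old, and carried Yaa, the Y chromosome to which an X chromosome segment with Tlr7 has been moved. Null mice were Fcgr2-/-, without the gene in every cell. The Cre mice were Fcgr2 fl/fl with 1 Cre driver, CD19Cre or CEBPaCre, named for a gene of B cells and for a transcription factor gene of myeloid progenitors. A CD11cCre and a floxed library without Cre, both Gr-1-, were left out of the comparison and are given only as values. Each library was made from about 100000 sorted cells. The labels do not say how many mice stand behind a library or that libraries came from separate mice, so every p here measures only the spread between libraries. Libraries labelled CD19Cre exist as 1 per subset, and any batch of sorting, RNA or library preparation that they shared cannot be told apart from the genotype. The labels name no batch.

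Fcgr2 is listed as Fcgr2b and encodes CD32, the receptor for IgG that restrains activating Fc receptors. Gr-1+ monocytes are the classical, inflammatory cells of blood, and Gr-1- monocytes are the patrolling cells that arise from them. Ribosomal protein mRNAs are among the most abundant in any cell, and most begin with a run of pyrimidines at the cap (a 5′ terminal oligopyrimidine, or TOP, start) through which mTOR controls their translation. Acute phase genes are switched on by IL-6 and IL-1, largely through STAT3, NF-κB and C/EBP factors. C/EBPα, the product of Cebpa, sets the myeloid fate of progenitors.

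Start sites of ribosomal protein genes are shown because most genes of this class moved the same way. The 4 windows below belong to the ribosomal protein genes with the smallest p among those lower in CD19Cre that hold a run of CTTTC or CTTTT there. Only the 61 of 82 ribosomal protein genes with a promoter sequence could be picked, and genes of a chromosome left out of the choice could not. Each window covers the last 25 bases before the annotated start and the first 30 after it, on the coding strand, from RefSeq's GRCm38.p6 table, with the run in capitals. They lie at chr10:23787180-23787234 (minus strand), chr7:109519170-109519224 (plus), chr7:118116118-118116172 (minus) and chr17:27635215-27635269 (minus), in this order.
Rps12: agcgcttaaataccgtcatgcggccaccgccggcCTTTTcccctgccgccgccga
Rpl27a: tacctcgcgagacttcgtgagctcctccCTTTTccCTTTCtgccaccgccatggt
Rps15a: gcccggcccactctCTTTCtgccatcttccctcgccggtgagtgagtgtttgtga
Rps10: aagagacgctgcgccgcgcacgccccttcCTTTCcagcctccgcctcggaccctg

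The last 250 bases before the start of Saa3 are shown as the promoter of a textbook acute phase gene, at chr7:46715677-46715926 (minus strand, GRCm38.p6). Capitals mark each match to TTNNGNAA, a loose form of the C/EBP site that was searched on both strands.
Saa3: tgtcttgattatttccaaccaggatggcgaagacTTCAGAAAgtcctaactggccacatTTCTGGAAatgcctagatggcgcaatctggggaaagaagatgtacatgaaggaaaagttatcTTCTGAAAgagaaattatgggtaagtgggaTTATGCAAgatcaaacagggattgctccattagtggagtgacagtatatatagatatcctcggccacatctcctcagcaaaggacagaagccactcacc

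The libraries labelled CD19Cre had the lowest share of ribosomal protein mRNA of the 9. Cytosolic ribosomal protein genes held 2.11% of the summed FPKM in the CD19Cre Gr-1+ library and 2.40% in the CD19Cre Gr-1- library, against 4.93% to 8.14% in the 5 references, 3.87% in CD11cCre and 6.12% in floxed. Reads are not given in the files, but relative depth could be estimated from the value that 1 fragment is worth among the lowest genes. With null Gr-1+ replicate 1 at 1, the CD19Cre libraries were at 1.45 (Gr-1+) and 3.76 (Gr-1-) and the references at 1 to 3.24. Genes at 0 numbered 10140 in CD19Cre Gr-1+, against 9482 in null replicate 1, 8781 in CEBPaCre and 5693 in null replicate 2 of its subset, where null replicate 2 is the one set apart. In Gr-1- they numbered 8827 in CD19Cre, against 5123 in null and 6655 in CEBPaCre, with 8401 in CD11cCre and 5246 in floxed. Each CD19Cre library thus had the most genes at 0 of its subset. The share of ribosomal protein genes is also part of every comparison below, because FPKM of all other genes rises when such abundant mRNAs fall. Summed FPKM as deposited differed between libraries too. It was 544264 in CD19Cre Gr-1+ against 440371 to 560116 in its references. In Gr-1- it was 548112 in CD19Cre against 411256 (null) and 472122 (CEBPaCre). The scalings given here also take up these unequal totals, so the part of ribosomal protein genes in the other results was not measured on its own. In bulk samples like these, fewer cells of a type and less RNA per cell cannot be told apart.

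The targeted gene did not separate the labels. Fcgr2b was at 201, 106 and 148 FPKM in the Gr-1+ references (null replicate 1, null replicate 2 and CEBPaCre, the order kept for all genes below) and at 195 FPKM in the library labelled CD19Cre. In Gr-1- it was at 145 and 83.05 FPKM in the references (null, then CEBPaCre) and at 105 FPKM in the library labelled CD19Cre. Groups overlapped in both subsets, and the log2 difference was 0.19 ± 0.31 (SE, limma adjusted p = 0.667, 2 against 5 libraries). It turned negative when libraries were brought to the same upper quartile (-0.13), to the same total without ribosomal protein genes (-0.07) or adjusted for length and GC content (-0.06). The libraries labelled null hold as much Fcgr2b as the others, so genotypes are named here only as labels. A value per gene does not show whether the deleted part of a transcript is missing, and Fcgr2b shares sequence with Fcgr3, so this check is incomplete.

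In the fit over all genes, which had the sorted subset as covariate, 2577 genes (24.9%) passed a limma adjusted p of 0.05. Of these, 1768 (17.1% of those tested) were higher and 809 (7.81%) lower in the libraries labelled CD19Cre. The median of all 10358 genes was 0.16 on the log2 scale. The split between higher and lower rests on the scaling: 68.6% of called genes were higher with FPKM as deposited, 59.6% after the length and GC adjustment and 55.8% with trimmed mean (TMM) scaling. The share was 44.1% with libraries brought to the same total without ribosomal protein genes, a scaling that also takes up their unequal totals. With upper quartile scaling it was 40.1%, and the median of all genes moved to -0.12. For that reason list medians below are also given relative to the median of all genes.

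Holding libraries of 1 genotype and replicate number together as a block left 762 genes higher (7.36% of those tested) and 270 lower (2.61%). The call also leans on 1 library. Without the CD19Cre Gr-1+ library, 1 gene was called higher and 6 lower, and none of these 7 was among the 2577. Without the CD19Cre Gr-1- library, 480 were higher and 405 lower, of which 810 were among the 2577 in the same direction. The Gr-1- difference, where 1 library stands against 2, is therefore given mainly as values. The CD11cCre library, left out of the test, shared part of the direction. It lay above both Gr-1- references for 67.4% of the genes called higher, against 42.6% of all genes, and below both for 64.3% of those called lower, against 28.1% of all. For the floxed library these were 12.2% against 18.7%, and 46.8% against 58.1%.

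Differences ran alike in both subsets. A gene was counted as beyond the references when its CD19Cre library lay above, or below, every reference library of its subset in both subsets. This held for 54.8% of the genes tested, 3714 above (35.9%) and 1967 below (19%), and 610 genes lay beyond in opposite ways. Among the 2577 called genes it held for 2574 (99.9%), a share that the call itself favours. Across the 10358 genes the Gr-1+ difference and the Gr-1- difference had a Pearson r of 0.60 and a Spearman rho of 0.75. Genes are not replicates, and each axis rests on a single CD19Cre library. A test of unequal differences between subsets called 10 genes (0.0965%), or 285 at an unadjusted p under 0.05.

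**Figure D1:**
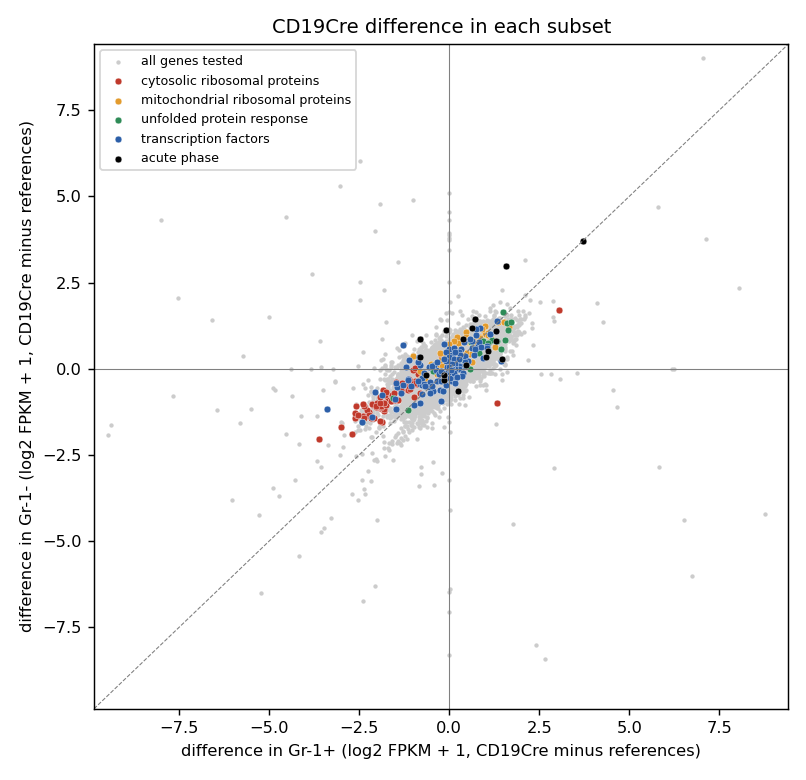
Each point is a gene, with the log2(FPKM + 1) difference of the CD19Cre library from the mean of its references in Gr-1+ (x axis) and in Gr-1- (y axis), and gene lists in colour. Cytosolic ribosomal proteins lie at the lower left, with medians of -1.80 in Gr-1+ and -0.93 in Gr-1-, and genes far from the dashed line of equal difference are few.

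Cytosolic ribosomal protein genes had the largest share called in 1 direction among the lists with tested members. Of 82, all tested, 67 (81.7%, against 7.81% of all genes) were lower and 1 was higher, and 76 lay below every reference in both subsets, against 19% of all genes. The median log2 difference was -1.33, or 2.51 times lower, and -1.49 relative to all genes. Under the 6 scalings it stayed between -1.53 and -1.49 relative to all genes, with 67 to 78 members lower. Both subunits took part: 39 of 48 Rpl genes and 26 of 32 Rps genes were lower. Held as a block, 39 of the 82 stayed lower (47.6%, against 2.61% of all genes). Without the CD19Cre Gr-1+ library the median shrank to -0.93.

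Rpl39, a small protein of the large subunit at the exit tunnel, changed most. It was at 429, 259 and 361 FPKM in the Gr-1+ references and at 27.1 FPKM in CD19Cre. The Gr-1- references held 224 and 180.1 FPKM and CD19Cre 48.3 FPKM. Both CD19Cre libraries were far below their references, by 7.29 times overall (log2 -2.87 ± 0.35, limma adjusted p = 0.00801). CD11cCre held 124 FPKM and floxed 266 FPKM, so the CD11cCre library also lay below both Gr-1- references.

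Rps12, of the small subunit and shown above, was at 411, 228 and 263 FPKM in the Gr-1+ references and at 43.6 FPKM in CD19Cre. The Gr-1- references held 168 and 156 FPKM and CD19Cre 42.7 FPKM. Its CD19Cre values were nearly equal in both subsets and far below all 5 references, and the difference was 5.02 times (log2 -2.33 ± 0.28, limma adjusted p = 0.00801). Rps27a, which makes ubiquitin fused to a ribosomal protein, was 3.44 times lower, at 112 and 116 FPKM in the CD19Cre libraries against 312 to 603 FPKM in the references. Rpl37a was at 101 and 191 FPKM against 594 to 1033 FPKM, 5.27 times lower.

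The change was graded within the class. Among the 82, 14 did not pass, among them Rpl13, Rpl30, Rpl35, Rpl4, Rpl5, Rplp0, Rps14, Rps15, Rps19, Rps27, Rps27l and Rps9. Rplp0, which builds the stalk of the large subunit, was at 297 FPKM in CD19Cre against 424 to 728 FPKM in Gr-1+, and at 339 against 310 and 359 FPKM in Gr-1-, where the groups overlapped. Rps27l, a p53-regulated copy of Rps27, had a log2 difference of 0.07. The 1 gene called higher, Rpl26, was listed at 0.00106 to 0.00198 FPKM in 4 of the 5 references, at 3.16 FPKM in CEBPaCre Gr-1- and at 7.27 and 5.63 FPKM in CD19Cre. Every cell uses this gene, so values near 0 may be failed estimates, and no fold is given. Processed pseudogenes share sequence with many ribosomal protein genes, and how such reads were assigned is not given in the sources used here.

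**Figure D2:**
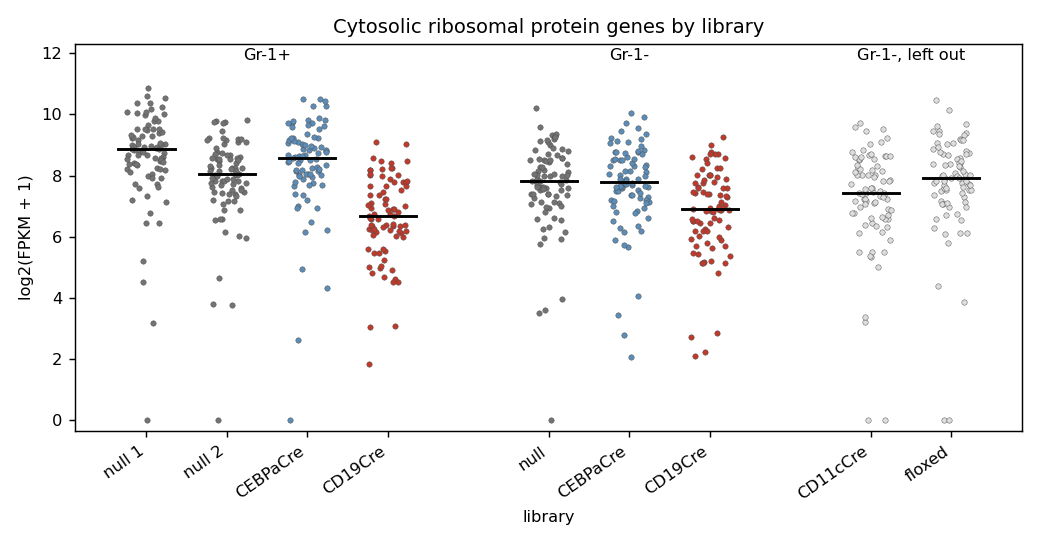
Each point is 1 of 82 cytosolic ribosomal protein genes, as log2(FPKM + 1), in each of the 9 libraries, with a bar at the median; the 2 libraries on the right were left out of the test. Medians of the CD19Cre libraries were 101 FPKM (Gr-1+) and 118 FPKM (Gr-1-), against 265 to 461 FPKM in Gr-1+ references, 220 to 224 FPKM in Gr-1- references, 171 FPKM in CD11cCre and 244 FPKM in floxed.

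The pyrimidine run was searched as CTTTC or CTTTT in the window from the last 25 bases before to 50 after the start, for the 8075 tested genes found in the promoter table. On the coding strand it was present in 37 of 61 cytosolic ribosomal protein genes (60.7%) and in 13.1% of all 8075. Genes called lower held it in 21.6% of windows, and in 18.6% once ribosomal protein genes were taken out, against 13.2% of genes not called and 8.93% of genes called higher. On the other strand the shares were 8.70% for called lower without ribosomal proteins, 11.1% for not called and 10.5% for called higher. A match is a stretch of letters near an annotated start and does not show where transcription began. These shares are given with no test.

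**Figure D3:**
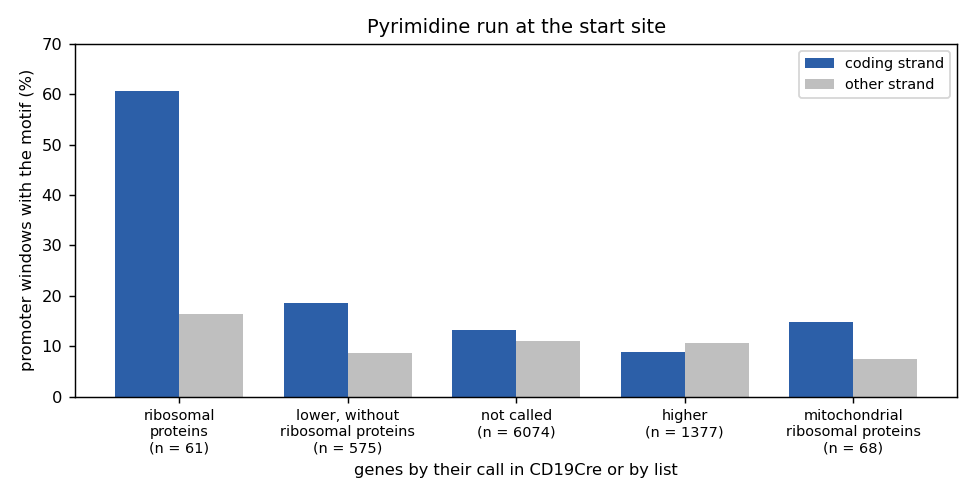
Bars give the percentage of promoter windows with CTTTC or CTTTT (y axis, from 0) for 5 sets of genes (x axis, with the number of windows), on the coding strand in blue and on the other strand in grey. The coding strand bar falls from 60.7% in ribosomal proteins to 18.6%, 13.2% and 8.93% in the other genes called lower, not called and called higher, while the grey bars of these last 3 sets stay between 8.70% and 11.1%.

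Other mRNAs known for a TOP start were looked at in a set of 15 genes outside the ribosomal proteins, picked from textbook knowledge after the values were seen, which supports nothing by its count. Of these, 10 were lower (7.81% of all genes), 0 were higher and 5 did not pass, 12 lay below every reference in both subsets (19% of all genes), and the median was -0.81. Eef1a1, the elongation factor that brings aminoacyl-tRNA to the ribosome, was at 1580.1, 1059 and 1294 FPKM in the Gr-1+ references and at 413 FPKM in CD19Cre. It was at 715 and 772 FPKM in the Gr-1- references and at 293 FPKM in CD19Cre, 2.83 times lower overall (limma adjusted p = 0.0084). Pabpc1, the poly(A) binding protein, was 2.14 times lower and Tpt1 was 2.13 times lower. Gas5, a noncoding host of small nucleolar RNAs with a TOP start, was at 2.91 and 2.59 FPKM in CD19Cre against 6.39 to 14.3 FPKM in the references. Eef2 (log2 -0.59, adjusted p = 0.072) and Gnb2l1, the ribosomal scaffold RACK1 (log2 -0.22, adjusted p = 0.538), did not pass in limma, and Gnb2l1 and Eef1d lay above both references in Gr-1-.

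Translation factors as a whole went both ways, with 13 of 50 higher (26%, against 17.1% of all genes) and 13 lower (26%, against 7.81%). Their median was -0.02, or -0.18 relative to all genes. Those lower included Eef1a1, Pabpc1, Eif3e, Eif3f, Eif3h and Eif4b. The 3 with the smallest p on the higher side were Eif3b, a scaffold of the eIF3 complex, at 159 and 100.3 FPKM in CD19Cre against 31.1 to 52.9 FPKM in the references (3.28 times higher), Eif2b5 (2.42 times) and Eif6 (2.52 times). Members of 1 complex, eIF3, were therefore called in both directions. Held as a block, 7 translation factors were higher (14%, against 7.36% of all genes) and 4 lower (8%, against 2.61%).

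Mitochondrial ribosomal proteins translate the mitochondrial genome, and their genes did not follow the cytosolic ones. Of 77, 23 (29.9%, against 17.1% of all genes) were higher and none was lower, with a median of 0.38, or 0.22 relative to all genes. With upper quartile scaling 16 were higher (20.8%, against 11.6% of all genes) and 6 lower (7.79%, against 17.3%). The median was then 0.18 above that of all genes. Mrpl37, of the large subunit, was at 20.5, 17.9 and 26.9 FPKM in the Gr-1+ references and at 69.9 FPKM in CD19Cre. In Gr-1- it was at 12.7 and 15.5 FPKM in the references and at 33.98 FPKM in CD19Cre, 2.73 times higher overall (limma adjusted p = 0.00833). Mrpl42, Mrps10 and Mrps27 were 2.55, 2.16 and 2.71 times higher.

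The proteasome, which degrades ubiquitinated proteins, had 18 of 41 genes higher (43.9%, against 17.1% of all genes) and 2 lower (4.88%, against 7.81%). Its median was 0.56, or 0.40 relative to all genes. Psmc4, an ATPase of the cap, was at 191 and 142 FPKM in CD19Cre against 53.0 to 78.8 FPKM in the references, 2.58 times higher. Psmb6, a catalytic subunit, was 2.71 times higher and Psmd2 2.69 times higher. The respiratory chain and ATP synthase had 18 of 77 higher (23.4%, against 17.1% of all genes) and 2 lower, with a median of 0.30, or 0.14 relative to all genes. With the block, 5 were higher (6.49%, against 7.36% of all genes) and 1 lower (1.30%, against 2.61%). The median was -0.01 with upper quartile scaling, where 14 were higher (18.2%, against 11.6% of all genes) and 14 lower (18.2%, against 17.3%). Uqcrc1, of complex III, was at 503 and 340.0 FPKM against 97.2 to 221 FPKM, and Atp5g2, of the ATP synthase ring, went the other way, at 26.8 and 42.5 FPKM against 90.3 to 166 FPKM.

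The unfolded protein response, by which cells raise chaperones of the endoplasmic reticulum, had 12 of 24 genes higher (50%, against 17.1%) and 3 lower (12.5%, against 7.81%). Its median was 0.66, or 0.51 relative to all genes. Hspa5, the chaperone BiP, was at 246, 206 and 250.5 FPKM in the Gr-1+ references and at 713 FPKM in CD19Cre. Among Gr-1- libraries the references held 165 and 216 FPKM and CD19Cre 473 FPKM, 2.77 times higher (limma adjusted p = 0.00833). Pdia6, a disulfide isomerase, was 2.91 times higher and Creld2 2.62 times higher. Xbp1, the transcription factor of 1 arm of the response, had a log2 difference of 1.07 at the gene level (adjusted p = 0.0116), which does not show its splicing. The 3 that were lower were Atf4, the factor of another arm, Ern1, the kinase that splices Xbp1, and Hyou1, a chaperone. Under the 6 scalings 11 or 12 members were higher. With the block, 8 were higher (33.3%, against 7.36% of all genes) and 3 lower (12.5%, against 2.61%).

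Acute phase genes were mostly too low to test: 18 of 40 passed the filter, and the serum proteins Crp, Orm1 and Saa2 were among the 22 under it. Of the 18, 4 (22.2%, against 17.1% of all genes) were higher, 0 were lower and 8 lay above every reference in both subsets, against 35.9% of all genes. The median was 0.65, or 0.49 relative to all genes. Their share is near that of all genes, so the class as a whole is not set apart by its counts. The 4 were Lrg1, Stat3, Cfb and Hp, of which Lrg1 and Stat3 stayed called when libraries were held as a block, while Cfb (adjusted p = 0.0988) and Hp (adjusted p = 0.111) did not.

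Lrg1, a secreted glycoprotein induced by IL-6, was at 334, 64.4 and 60.1 FPKM in the Gr-1+ references and at 1456 FPKM in the library labelled CD19Cre. It was at 5.94 and 1.01 FPKM in the Gr-1- references and at 47.5 FPKM in CD19Cre, and under 0.5 FPKM in both libraries left out. Null replicate 1 stood well above the other Gr-1+ references, and both CD19Cre libraries lay above every reference of their subset, 13.1-fold overall (log2 3.71 ± 0.69, limma adjusted p = 0.0105). Without the CD19Cre Gr-1- library its adjusted p was 0.0557.

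Saa3, serum amyloid A made by myeloid cells, did not pass. It was at 1400.4, 248 and 189.6 FPKM in the Gr-1+ references and at 1201 FPKM in CD19Cre, below null replicate 1. In Gr-1- it was at 27.2 and 2.40 FPKM in the references and at 76.8 FPKM in CD19Cre, and at 0 and 0.405 FPKM in CD11cCre and floxed. The groups overlapped in Gr-1+, and the log2 difference was 2.24 ± 0.93 (limma adjusted p = 0.108).

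Stat3, the factor that carries the IL-6 signal, was at 72.6, 64.4 and 87.5 FPKM in the Gr-1+ references and at 184 FPKM in CD19Cre, and at 92.3 and 138 against 243 FPKM in Gr-1-. It was 2.30 times higher (limma adjusted p = 0.0105), though CD11cCre held 177 FPKM. Hp, haptoglobin, was 1.84 times higher and Cfb, complement factor B, 2.08 times higher. TTNNGNAA was present within 250 bases before to 50 after the start, on either strand, in 9 of 14 acute phase genes with a promoter (64.3%), in 32.2% of all tested genes, in 32.6% of those called higher and in 31.4% of those called lower.

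**Figure D4:**
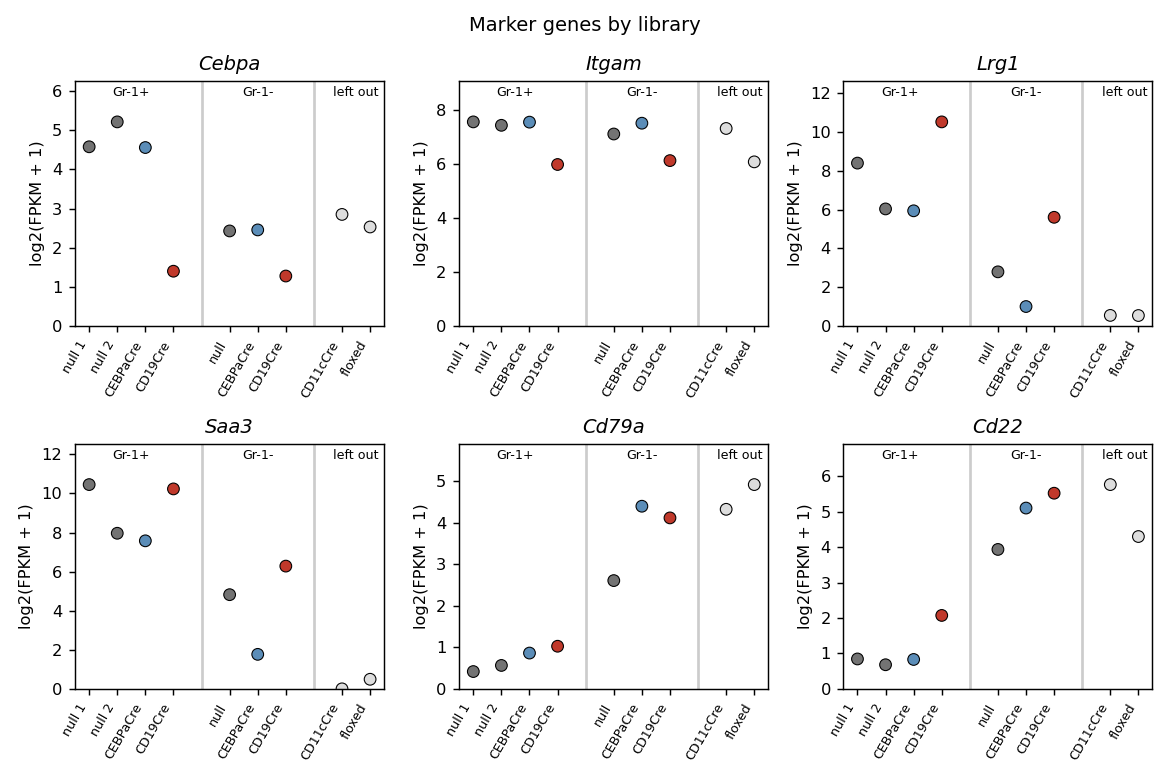
Each panel gives 1 gene as log2(FPKM + 1) (y axis, from 0) in each library (x axis), with Gr-1+ on the left, Gr-1- in the middle and the 2 libraries left out on the right; CD19Cre is red. Cebpa and Itgam are lowest in CD19Cre within each tested subset and Lrg1 is highest, Saa3 overlaps in Gr-1+, and the B cell genes Cd79a and Cd22 are higher in Gr-1- than in Gr-1+ libraries.

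Among 133 transcription factors of myeloid cells, 115 were tested, and 10 were higher and 10 lower (8.70% each, against 17.1% and 7.81% of all genes). The median was -0.03. Of the 115, 24 lay above and 29 below every reference in both subsets, against 35.9% and 19% of all genes. With upper quartile scaling 8 were higher (6.96%, against 11.6% of all genes) and 26 lower (22.6%, against 17.3%). The list stayed between -0.20 and -0.16 relative to all genes under the 6 scalings. Held as a block, 3 were higher (2.61%, against 7.36% of all genes) and 5 lower (4.35%, against 2.61%). The class did not move in 1 direction, and single factors did.

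Cebpa was at 22.9, 36.1 and 22.6 FPKM in the Gr-1+ references and at 1.64 FPKM in the library labelled CD19Cre. In Gr-1- it was at 4.39 and 4.49 FPKM in the references and at 1.43 FPKM in CD19Cre, with 6.22 FPKM in CD11cCre and 4.78 FPKM in floxed. The higher level of the Gr-1+ references is thus missing in the CD19Cre Gr-1+ library, which is close to its Gr-1- partner. The log2 difference was -2.34 ± 0.44, or 5.05 times lower (limma adjusted p = 0.0107, and 0.0425 held as a block). Its relatives did not pass: Cebpb, the factor of emergency myelopoiesis and of Gr-1- monocytes, had a log2 difference of 0.34 (adjusted p = 0.405), and Cebpe, of granulocytes, 0.87 (adjusted p = 0.0518).

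Atf4, the factor of the integrated stress response, was at 45.2, 32.3 and 40.1 FPKM in the Gr-1+ references and at 6.45 FPKM in CD19Cre, and at 43.0 and 47.8 against 14.9 FPKM in Gr-1-. It was 4.01 times lower (limma adjusted p = 0.00801). Lyl1, a factor of blood progenitors, was at 1.86 and 4.91 FPKM in CD19Cre against 10.4 to 15.0 FPKM in the references, 3.48 times lower. Klf4 and Klf2, factors of monocyte differentiation and quiescence, were 2.52 and 2.04 times lower, and Klf2 was not called when libraries were held as a block (adjusted p = 0.0851). Pou2f2, the octamer factor that marks Gr-1- monocytes, was 2.31 times lower.

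Factors that were higher included Irf8, which drives the monocyte lineage, at 108, 92.0 and 115 FPKM in the Gr-1+ references and 191 FPKM in CD19Cre, and at 49.2 and 55.9 against 120.3 FPKM in Gr-1-. It was 2.02 times higher (limma adjusted p = 0.0105), with 122 FPKM in CD11cCre. Sfpi1, which encodes PU.1, had a log2 difference of 0.81 (adjusted p = 0.0366). Stat3 and Xbp1 were described above, and Hif1a, Stat6, Nr1h2, Nfkb2, Gfi1b and Nr3c1 complete the 10.

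Itgam encodes CD11b, by which all of these cells were sorted. It was at 186, 170.0 and 184 FPKM in the Gr-1+ references and at 61.7 FPKM in CD19Cre. The Gr-1- references held 136 and 179.5 FPKM and CD19Cre 68.3 FPKM, while the floxed library held 66.1 FPKM and CD11cCre 157 FPKM. It was 2.58 times lower (log2 -1.37 ± 0.19, limma adjusted p = 0.00833), and the low level was shared by the floxed library. Of the 14 other integrins tested, 2 were higher and 1 lower, against 17.1% and 7.81% of all genes. Itga5 and Itgb5 were 1.97 and 1.80 times higher, and Itga4 fell by 0.56 on the log2 scale. Itgb5 (adjusted p = 0.0697) and Itga4 (adjusted p = 0.108) were not called when held as a block. With Itgam included, the list median was 0.10, or -0.06 relative to all genes.

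S100a4, a calcium-binding protein of motile cells, was at 1374, 1338 and 1573 FPKM in the Gr-1+ references and at 77.9 FPKM in CD19Cre, and at 424 and 553 against 105 FPKM in Gr-1-. This was 9.47 times lower (limma adjusted p = 0.00801) and the largest fall in the list of classical monocyte genes. Of the other 23 tested genes of that list, 5 were higher and none was lower. The whole list had a median of 0.30, or 0.14 relative to all genes, and its share higher (20.8%) is near the 17.1% of all genes. By subset its median was 0.06 in Gr-1+ and 0.59 in Gr-1-, against 0.14 and 0.18 for all genes. F13a1, clotting factor XIII, was at 1205 and 28.3 FPKM in CD19Cre against 375 to 538 and 5.56 to 7.82 FPKM in the references of each subset, 3.17 times higher. Ccr2, the receptor for exit from the marrow, was 1.74 times higher but not called when held as a block (adjusted p = 0.0788). Genes of nonclassical monocytes had 4 of 31 higher (12.9%, against 17.1% of all genes), such as Pecam1, and 5 lower (16.1%, against 7.81%), such as Spn (CD43), with a median of -0.03, or -0.19 relative to all genes. The block left 1 higher (3.23%, against 7.36% of all genes) and 1 lower (3.23%, against 2.61%). Spn was not called with it (adjusted p = 0.0795).

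Notch signalling, which directs Gr-1+ cells to the Gr-1- state, had 5 of 22 genes higher (22.7%, against 17.1% of all genes) and 3 lower (13.6%, against 7.81%), with a median of -0.03, or -0.19 relative to all genes. The block left 2 higher (9.09%, against 7.36% of all genes) and 3 lower (13.6%, against 2.61%). Notch2 was at 20.3, 30.6 and 28.8 FPKM in the Gr-1+ references and at 2.61 FPKM in CD19Cre, and at 26.1 and 45.6 against 8.45 FPKM in Gr-1-. It was 5.43 times lower (limma adjusted p = 0.00801), Notch1 was 2.28 times lower, and Numb, an inhibitor of Notch, was 2.36 times higher. Among Fc receptors and their signalling, 7 of 26 were higher (26.9%, against 17.1% of all genes) and none was lower, with a median of 0.29, or 0.13 relative to all genes. Held as a block, 4 were higher (15.4%, against 7.36% of all genes). With upper quartile scaling 6 were higher (23.1%, against 11.6% of all genes) and 4 lower (15.4%, against 17.3%). Fcgr3, the activating receptor that shares ligands with CD32, was at 529 and 130.5 FPKM in CD19Cre against 172 to 262 FPKM and 58.9 and 75.3 FPKM in the references, 2.20 times higher. Dok2, an adaptor that restrains kinase signals, was 5.45 times higher, at 50.6 and 8.90 FPKM against 1.28 to 6.53 FPKM.

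Genes of B cells, described here for 18 genes of which 6 were tested, had 1 higher, none lower and 5 that did not pass. Over all genes 17.1% were higher and 7.81% lower. Cd79a, of the B cell receptor, was at 0.334, 0.477 and 0.816 FPKM in the Gr-1+ references and 1.03 FPKM in CD19Cre, and at 5.08 and 19.99 against 16.3 FPKM in Gr-1-. Ms4a1 (CD20) and Pax5 were listed at 0 in the CD19Cre Gr-1+ library. Cd22, an inhibitory receptor of B cells, was at 0.796, 0.603 and 0.778 FPKM in the Gr-1+ references and 3.21 FPKM in CD19Cre, and at 14.3 and 33.5 against 45.1 FPKM in Gr-1-. It was 2.23 times higher (limma adjusted p = 0.0248), though not when held as a block (adjusted p = 0.072). The summed level of the 18 genes was 22.3 FPKM in the CD19Cre Gr-1+ library, within the 16.2 to 24.6 FPKM of its references. In Gr-1- it was 151.9 FPKM against 80.2 and 126 FPKM, with 167 FPKM in CD11cCre.

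The remaining genes that the ranking named were of other kinds. On the higher side they were Ctsc, the protease that activates serine proteases of granules, at 2585 and 506 FPKM in CD19Cre against 576 to 660.5 and 148 and 169.7 FPKM (3.67 times), Mdh2, malate dehydrogenase of mitochondria (3.50 times), Ptges2 (3.60 times), Kat5 (2.98 times), Tmx2 (2.92 times), Gpn1 (2.91 times), Kpna2 (2.77 times) and Fen1 (2.72 times). On the lower side, Sik1, a kinase induced by cAMP, was at 1.47 and 6.69 FPKM against 14.1 to 44.4 FPKM, 6.17 times lower. Tnrc18, Cdk13, Mll2, Prrc2a and Ddx3x, most of them large nuclear regulators, were 4.35, 4.01, 3.83, 3.58 and 2.74 times lower. With genes cut into 10 equal bins by length, the longest transcripts, from 4592 bases up, had a median of -0.09 with 11.3% lower and 5.88% higher, and the shortest, up to 711 bases, 0.03 with 11.9% lower and 13.3% higher. Bin 4, from 1280 to 1612 bases, had a median of 0.30 with 4.51% lower and 23.8% higher. The relation to length was thus not a straight line. Across 10207 genes with an annotated transcript, the Pearson correlation with the difference was 0.03 for log2 length and 0.02 for GC content. Spearman rho was -0.07 for log2 length and 0.04 for GC content. For GC content the Pearson correlation had opposite signs by subset, at -0.06 with the Gr-1+ difference and 0.12 with the Gr-1- difference.

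Rn45s, the precursor of ribosomal RNA, was at 1217, 623 and 864 FPKM in the Gr-1+ references and at 43.4 FPKM in CD19Cre. In Gr-1- it was at 509 and 466 FPKM in the references and at 51.4 FPKM in CD19Cre, with 368 FPKM in CD11cCre and 471 FPKM in floxed. It was 13.8 times lower (limma adjusted p = 0.00678). Lars2, the mitochondrial leucyl-tRNA synthetase, was at 35.03 and 26.8 FPKM against 516 to 3237 FPKM in the references and 86.3 FPKM in CD11cCre. These values moved together with the ribosomal protein genes and the others above, and their part in those results was not tested.

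Markers of cells that a CD11b gate can also hold were measured as sums. Neutrophil genes, 20 tested of 29, had 4 higher (Cd177, Mmp8, Csf3r and Fcnb) and 0 lower. This is 20%, near the 17.1% of all genes, and their median was 0.72, or 0.56 relative to all genes. By subset the median was 0.98 in Gr-1+ and 0.13 in Gr-1-, against 0.14 and 0.18 for all genes, so the list stood above all genes only in Gr-1+. With the block only Cd177 of the 4 was called (adjusted p = 0.0528 for Mmp8, 0.0597 for Csf3r and 0.0712 for Fcnb). All neutrophil genes in the files summed to 2517 FPKM in the CD19Cre Gr-1+ library, within the 1089 to 2993 FPKM of its references, and 232 FPKM in Gr-1- against 129 and 176 FPKM. Of the granule genes, Elane was at 18.0 FPKM and Mpo at 5.68 FPKM in CD19Cre Gr-1+, against 4.87 to 5.77 FPKM and 0.0869 to 0.321 FPKM in its references, and both were at 0 in CD19Cre Gr-1-. Prtn3, the most abundant of the 4 measured, was at 34.2 FPKM, within the 27.1 to 55.9 FPKM of its references, and Ctsg was at 1.94 FPKM against 0.510 to 1.51 FPKM. S100a8 and S100a9 did not pass (adjusted p = 0.838 and 0.738). Red cell genes, 10 tested, had 1 lower (10%, against 7.81% of all genes), Hbb-b1, which was not called as a block (adjusted p = 0.0992). Their sums were 397 FPKM in CD19Cre Gr-1+ against 937 to 3891 FPKM, and 1825.03 FPKM in Gr-1-, between its references. Their median difference was -1.73 in Gr-1+ and -0.25 in Gr-1-. By limma 0 of 11 NK cell, 0 of 11 dendritic cell and 0 of 2 T cell genes passed, with 1, 0 and 1 at an unadjusted p under 0.05, and of 13 platelet genes Selp was called higher, though not as a block (adjusted p = 0.131). Of 4 tested eosinophil and basophil genes, Ear1, a ribonuclease of eosinophils, was 2.72 times lower (adjusted p = 0.0227, and 0.0535 as a block) and the median was -0.84. Their list summed to 16.8 FPKM in CD19Cre Gr-1+, within the 15.8 to 33.9 FPKM of its references, and to 47.9 FPKM in Gr-1- against 152 and 110 FPKM. NK cell genes summed to 3.57 FPKM in the CD19Cre Gr-1+ library and 184 FPKM in Gr-1-, where the references held 46.4 and 265 FPKM. The part of these cells in the results was not tested.

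Immediate early and stress genes rise during handling of cells. Of 30, 1 was higher (3.33%, against 17.1% of all genes) and 5 lower (16.7%, against 7.81%). The block left 1 higher (3.33%, against 7.36% of all genes) and 1 lower (3.33%, against 2.61%). Their median was -0.47, or -0.63 relative to all genes. Measured from the mean of the Gr-1+ references, the list median was -0.76 in CD19Cre and -0.72 in null replicate 2, so a reference was nearly as low. In Gr-1- it was -0.31 in CD19Cre, against -0.08 in null and 0.08 in CEBPaCre. The type I interferon response had 0 of 27 called in either direction by limma, 1 at an unadjusted p under 0.05, and a median of -0.00, or -0.16 relative to all genes, with Mx1 at -0.90 (adjusted p = 0.207). The list named nuclear-retained long RNAs also holds hosts of small nucleolar RNAs. It had 5 of 10 genes lower (50%, against 7.81% of all genes) and 1 higher, Tug1 (10%, against 17.1%). With the block, 2 were lower (20%, against 2.61% of all genes) and Tug1 was not called (adjusted p = 0.118). The list median was -0.80, or -0.96 relative to all genes. Of the 5 lower, 4 were hosts of small nucleolar RNAs such as Snhg1 (3.65 times lower) and Gas5. These counts therefore do not show a fall of nuclear-retained RNA. The list summed to 473.3 FPKM in CD19Cre Gr-1+, where the highest reference held 443.1 FPKM. In Gr-1- it summed to 558.3 FPKM in CD19Cre, between its references at 458.6 and 663.7 FPKM. Genes of the mitochondrial genome were not analysed here.

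**Figure D5:**
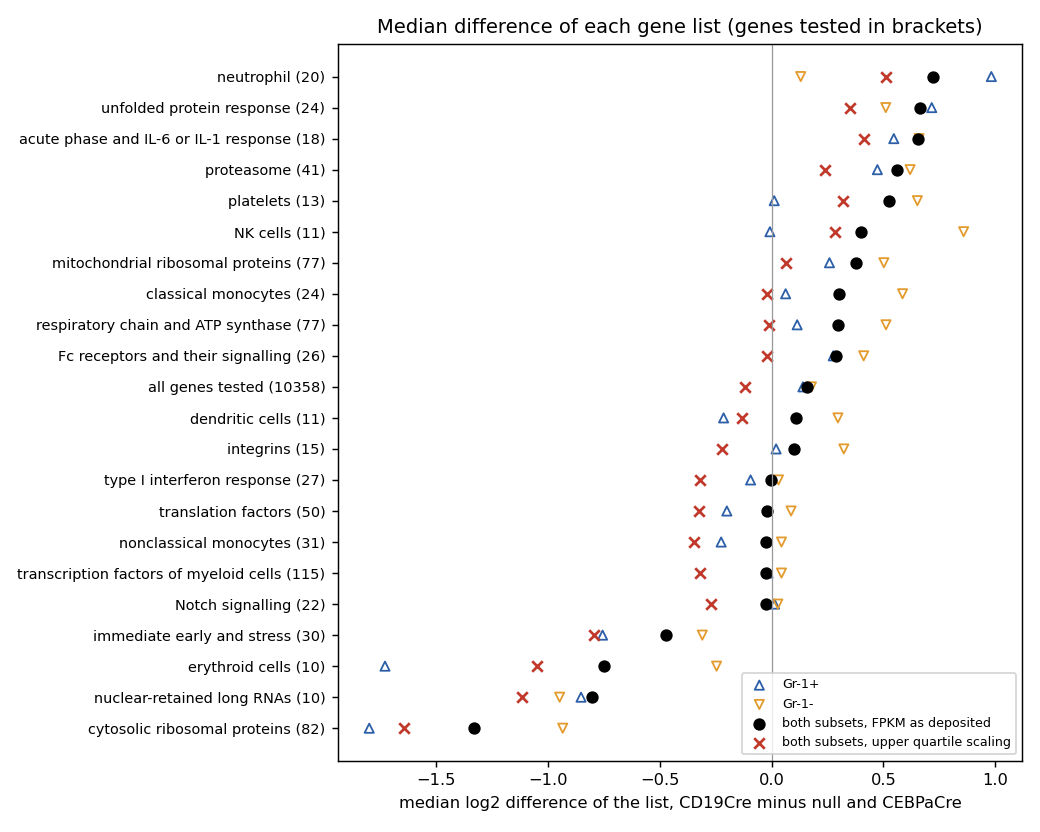
For each list with at least 10 tested genes (y axis, number tested in brackets), symbols give the median log2 difference (x axis) in Gr-1+, in Gr-1-, over both subsets as deposited and over both with upper quartile scaling. Cytosolic ribosomal proteins lie at -1.33 and at -1.64 with upper quartile scaling. The respiratory chain, Fc receptor, classical monocyte, integrin and dendritic cell lists change sign with that scaling, as does the median of all genes tested.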

How the data were processed

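The deposited files hold 1 FPKM value per gene symbol and library, made by the authors. Per the submitters' processing notes the tools were TopHat2 2.0.8 and Cufflinks 2.1.1 with the mm9 build. The gene annotation and settings are not given in the sources used here. Per the labels' protocols, RNA was taken with Trizol and cDNA made with a SMART-Seq kit.

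Each gene's log2(FPKM + 1) was modelled in R 4.3.3 with limma 3.58.1 (a linear model, then eBayes with a trend), a scale that understates changes of low genes, with Benjamini-Hochberg adjustment over all 10358 genes and a two-sided threshold of 0.05. The fit had 7 libraries, 4 residual degrees of freedom and the subset as covariate. Times higher or lower are 2 to the power of that log2 difference. No value column was left out (0), and no 2 libraries shared an equal non-zero value (0 in every pair). The procedure was tested on simulated data.

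Of the symbols, 21021 were current names in the mouse annotation, 1968 older names and 245 had no match. No coordinates of the files were used, since sequences came from GRCm38.p6.

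The members and the 25 gene lists were chosen with earlier results of these data known. The named genes were Cebpa, Itgam, Saa3, Lrg1, Fcgr2b and Fcgr3, the 10 smallest p in each direction among genes of at least 5 FPKM beyond both sets of references (predicted genes and small RNAs left out), up to 4 members of each list and up to 4 interaction genes. Rps10, Rps15a, Rpl27a, the B cell and granule genes, the TOP set and further list members were chosen after their values were seen. Not all genes that the rule picks are described. A few genes, including 1 of the 19 on the B cell list, are not reported here.

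Labels give null replicate numbers only, and do not say that libraries of the 2 subsets share a mouse. Deviations from the subset mean correlated across genes at 0.60 for CD19Cre, 0.25 for CEBPaCre and 0.35 for null replicate 1. Between unlike genotypes the values were -0.39 to 0.19. The value for CD19Cre is the same r as that between its Gr-1+ and Gr-1- differences above, so it cannot show a shared mouse. Subset means included the CD19Cre libraries, which favours negative values between unlike genotypes. Genotype with replicate number was tried as a random block (statmod 1.5.0, estimated correlation 0.39). Scalings, filters, pseudocounts, reference groups and left-out libraries were the other alternatives.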

Additional observations from a re-analysis of the deposited data

Results flagged for a closer look

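The difference between CD19Cre and the references was unequal in the 2 subsets for 10 genes by the interaction term in limma, of which 7 are microRNA or small nucleolar RNA genes. The difference in Gr-1+ minus that in Gr-1- was 12.8 on the log2 scale for Mir3061, 6.48 for Mir678, 8.29 for Snord95 and 6.18 for Mir1902. Mir3061 was listed at 106 FPKM in the CD19Cre Gr-1+ library and at 0 in its 3 references, and at 84.0 and 47.9 FPKM in the Gr-1- references and 0 in CD19Cre. Snord95 was listed at 412 and 235 FPKM in the Gr-1- references and at 0 in both CD19Cre libraries and all Gr-1+ references, while CD11cCre held 870 FPKM. Short genes swing between 0 and high FPKM with few fragments, and whether these values are failed estimates was not tested. The other 3 genes were Gm9846, Ppp1r18 and Rpl34-ps1.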

How the results depend on the processing

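Genes called higher (1768 as reported) came to 1054 with no filter on the mean, 1056 with CEBPaCre alone as reference and 762 with the replicate block. Genes called lower (809) came to 414 with no filter, 1348 with TMM scaling, 1796 with upper quartile scaling, 1590 with ribosomal protein genes left out of the total, 1310 after the length and GC adjustment, 270 with the replicate block and 1435 with the median of all genes centred within subsets, an alternative chosen after seeing the data. The count above every reference in both subsets (3714) came to 2329 with upper quartile scaling. The count below (1967) came to 1121 at a mean of at least 5 FPKM, 3078 with no filter, 3526 with upper quartile scaling, 3214 with the total without ribosomal proteins and 2986 with centred medians. Interaction calls (10) came to 6 with a pseudocount of 5, with no filter, after the length and GC adjustment and with floxed added to the reference, 3 with floxed and CD11cCre added, and 20 with the replicate block. The causes were not tested.

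Leaving out 1 library in turn gave 1 to 1959 genes higher, 6 to 861 lower and 10 to 23 interaction calls, and ribosomal protein medians from -1.80 to -0.93. Without null Gr-1- replicate 1, 1143 genes were higher. Without either CD19Cre library there was no interaction fit and no count beyond the references.

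With upper quartile scaling the list medians came to -1.64 for cytosolic ribosomal proteins, -0.322 for transcription factors (-0.267 with the total without ribosomal proteins), -0.0127 for the respiratory chain, -0.0210 for Fc receptors and -0.0197 for classical monocytes. The median of all genes came to -0.117 with upper quartile scaling, -0.0687 with the total without ribosomal proteins, -0.00767 when centred and -0.0350 with no filter, where acute phase genes came to -0.0316. Of genes that were not called, Fcgr2b came to -0.131 (upper quartile), -0.0745 (total without ribosomal proteins) and -0.0646 (length and GC), and Tcf4 to -0.0889, -0.0379 and -0.0779 under these 3. Batf3 came to -0.0415 with upper quartile scaling. With CEBPaCre alone as reference, Batf3 came to -0.00372, Kmo to -0.176, Hba-a2 to 0.00406 and Isg20 to -0.0213. Leaving out 1 library gave -0.0576 to 0.410 for Fcgr2b, -0.147 to 0.712 for Batf3 and -6.01 to 6.75 for Mir3061. No called gene turned to a call in the other direction under these alternatives (0 in each).

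No paired analysis was possible because genotype is nested in mice and only the null group carries replicate numbers, so the replicate block was random. Of 81 named genes called as reported, 64 stayed called with the block, 57 without the CD19Cre Gr-1- library and 0 without the CD19Cre Gr-1+ library, where 1 library stands against 2 in its subset. The files give no read counts, so levels carry no counting interval. Genes near 0 are limited further by failed estimates.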
